A study of Mus musculus with 8 samples.

Results

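Transcripts of the ISG15 conjugation system were measured by RNA sequencing in mouse embryonic fibroblasts. The set comprised 6 genes chosen by role, of 24972 in the deposited table: Isg15, the conjugating enzymes Uba7, Ube2l6 and Herc6, the protease Usp18, and the ISG15-binding ligase Rnf213. The fibroblasts came from embryos of embryonic day 14, were passaged 2 times and received no treatment. There were 4 genotypes with 2 libraries each: WT, Tfam+/- with 1 intact Tfam allele, Zbp1-/- without Zbp1, and Tfam+/-Zbp1-/- with both defects. TFAM packages mitochondrial DNA and starts its transcription. ZBP1 is an interferon-induced sensor of left-handed nucleic acids. The sources used here do not say how the alleles were made or whether both libraries of a genotype represent different embryos, so p-values measure only the spread between libraries, which may be technical.

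ISG15 is a ubiquitin-like protein with tandem ubiquitin folds that is made in response to type I interferon. The E1 enzyme UBA7 activates it, the E2 enzyme UBE2L6 carries it, and in the mouse the E3 ligase HERC6 is the main enzyme that attaches it to target proteins. USP18 removes ISG15 from its targets and, apart from that activity, binds the interferon receptor and dampens its signalling. RNF213 is a very large ATPase and ubiquitin ligase that binds ISG15 and ISG15-modified proteins and acts against bacteria and viruses.

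The regions upstream of Isg15, Ube2l6 and Herc6 are shown because these genes stood at different points of the range described below, from the steepest rises to no call. Each sequence is the 250 bases before the RefSeq transcript start in GRCm38.p6, 5′ to 3′ on the strand of the gene. Capitals mark matches to GAAA followed by any 2 bases and GAAA, the core of the interferon-stimulated response element.
Isg15, chr4:156200819-156201068, minus strand: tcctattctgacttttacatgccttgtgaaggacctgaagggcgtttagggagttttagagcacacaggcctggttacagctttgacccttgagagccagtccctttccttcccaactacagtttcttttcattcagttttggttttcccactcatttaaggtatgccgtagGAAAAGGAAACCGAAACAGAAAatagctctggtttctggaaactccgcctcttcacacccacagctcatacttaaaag
Ube2l6, chr2:84798578-84798827, plus strand: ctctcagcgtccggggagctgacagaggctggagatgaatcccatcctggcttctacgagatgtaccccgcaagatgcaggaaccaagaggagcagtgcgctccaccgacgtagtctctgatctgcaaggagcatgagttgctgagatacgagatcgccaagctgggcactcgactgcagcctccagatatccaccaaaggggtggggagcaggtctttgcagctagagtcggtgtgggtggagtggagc
Herc6, chr6:57580742-57580991, plus strand: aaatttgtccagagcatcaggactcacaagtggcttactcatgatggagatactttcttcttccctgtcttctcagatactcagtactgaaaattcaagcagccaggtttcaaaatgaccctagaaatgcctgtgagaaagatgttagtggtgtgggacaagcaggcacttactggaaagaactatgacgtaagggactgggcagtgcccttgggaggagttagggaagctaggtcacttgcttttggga
Promoter windows of 300 bases (250 before and 50 after the start) were found for 5 of the 6 genes, all but Usp18, and were searched on both strands. Isg15 held 3 overlapping matches on its own strand, which joined into 1 stretch from position -78 to -57, where -1 is the last base before the start. Uba7, Ube2l6, Herc6 and Rnf213 held 0 matches in this window. For Rnf213 the 250 bases before the start used ran from 119389849 to 119390098. They lay partly inside its gene span, which begins at 119389950. Of the 250 bases before the start of Uba7, 62 lay in an exon annotated by GENCODE. Among all 32851 RefSeq windows, 3.44% held a match. The gamma-activated site TTCNNNGAA was in 0 of the 5 windows and in 8.30% of all windows. A match is a run of letters and does not show binding, and its absence says nothing about a factor.

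In the genome, Isg15 lies on chromosome 4 from 156199424 to 156200818 on the minus strand, and the other genes lie on the plus strand. Uba7 spans 107975567 to 107984056 of chromosome 9, and Ube2l6 spans 84798828 to 84810003 of chromosome 2. Herc6 (57580992 to 57665136) and Usp18 (121245906 to 121270917) are both on chromosome 6, and Rnf213 spans 119389950 to 119487418 of chromosome 11. These are RefSeq coordinates in GRCm38.p6, the assembly also called mm10. An antisense transcript, A930037H05Rik, overlaps Rnf213 exons and had 1.07 to 12.4 normalized counts, far below Rnf213 itself. Gm44148 overlaps Usp18 on the opposite strand, Gm20661 overlaps Uba7 and Gm45193 overlaps Herc6 on the same strand, and none of these had an entry of its own in the table used here. Since the use of strand in counting is not given, reads of these pairs cannot be told apart.

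Library totals were 16752835 to 18303036 normalized counts. Tfam was at 278 to 424 in the 4 libraries with 1 Tfam allele and at 471 to 675 in the other 4. Zbp1 was at 64.6 and 69.8 in Tfam+/- and at 0.86 and 2.69 in Tfam+/-Zbp1-/-. It was at 7.34 and 3.19 in WT and at 3.79 and 1.03 in Zbp1-/-. WT cells thus had too little Zbp1 for a comparison with Zbp1-/- to test the knockout label. The 9 fibroblast markers were detected in every library, with Vim at 59392 to 74720. Of 17 leukocyte markers 15 were detected, mostly macrophage genes such as Csf1r and C1qa, and the T cell gene Cd3e was listed at 0. Across genes, Tfam+/- replicate 1 and Zbp1-/- replicate 2 were shifted together (deviations of same-numbered libraries of these genotypes correlated at r = -0.70). Counts of called genes are therefore also given from the other 6 libraries, a choice made after the data were seen, in which Tfam+/- and Zbp1-/- have 1 library each and their spread is assumed to equal that of the other genotypes.

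For Isg15 the WT libraries gave 49.0 and 71.7 normalized counts, the Tfam+/- libraries 1410 and 1038, the Zbp1-/- libraries 80.9 and 103, and the Tfam+/-Zbp1-/- libraries 150 and 180. Both Tfam+/- libraries stood far above the other 6, and no 2 genotypes overlapped. Uba7, the activating enzyme, stood at 72.5 and 71.3 (WT), 244 and 161 (Tfam+/-), 124 and 159 (Zbp1-/-), and 90.2 and 104 (Tfam+/-Zbp1-/-). The highest Uba7 values within Tfam+/- and within Zbp1-/- came from the 2 libraries that were shifted together, and the lower Tfam+/- value lay only just above the higher Zbp1-/- value. Ube2l6, which takes ISG15 from UBA7, gave 140 and 120 (WT), 332 and 367 (Tfam+/-), 176 and 188 (Zbp1-/-), and 168 and 182 (Tfam+/-Zbp1-/-). Its Zbp1-/- and Tfam+/-Zbp1-/- values overlapped, and WT was lowest.

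Herc6, the ligase, followed another order. Its libraries gave 147 and 146 (WT), 188 and 258 (Tfam+/-), 111 and 84.0 (Zbp1-/-), and 164 and 185 (Tfam+/-Zbp1-/-). Zbp1-/- held the lowest values, below WT, and the Tfam+/- and Tfam+/-Zbp1-/- libraries were next to each other. The protease gene Usp18 gave 26.4 and 21.3 (WT), 761 and 625 (Tfam+/-), 35.3 and 44.9 (Zbp1-/-), and 59.5 and 71.6 (Tfam+/-Zbp1-/-). Its genotypes kept the same order as those of Isg15, with no overlap. Rnf213 gave 2271 and 2318 (WT), 8776 and 9006 (Tfam+/-), 3195 and 3074 (Zbp1-/-), and 3149 and 3138 (Tfam+/-Zbp1-/-). The Zbp1-/- and Tfam+/-Zbp1-/- values of Rnf213 overlapped and lay between WT and Tfam+/-.

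**Figure D1:**
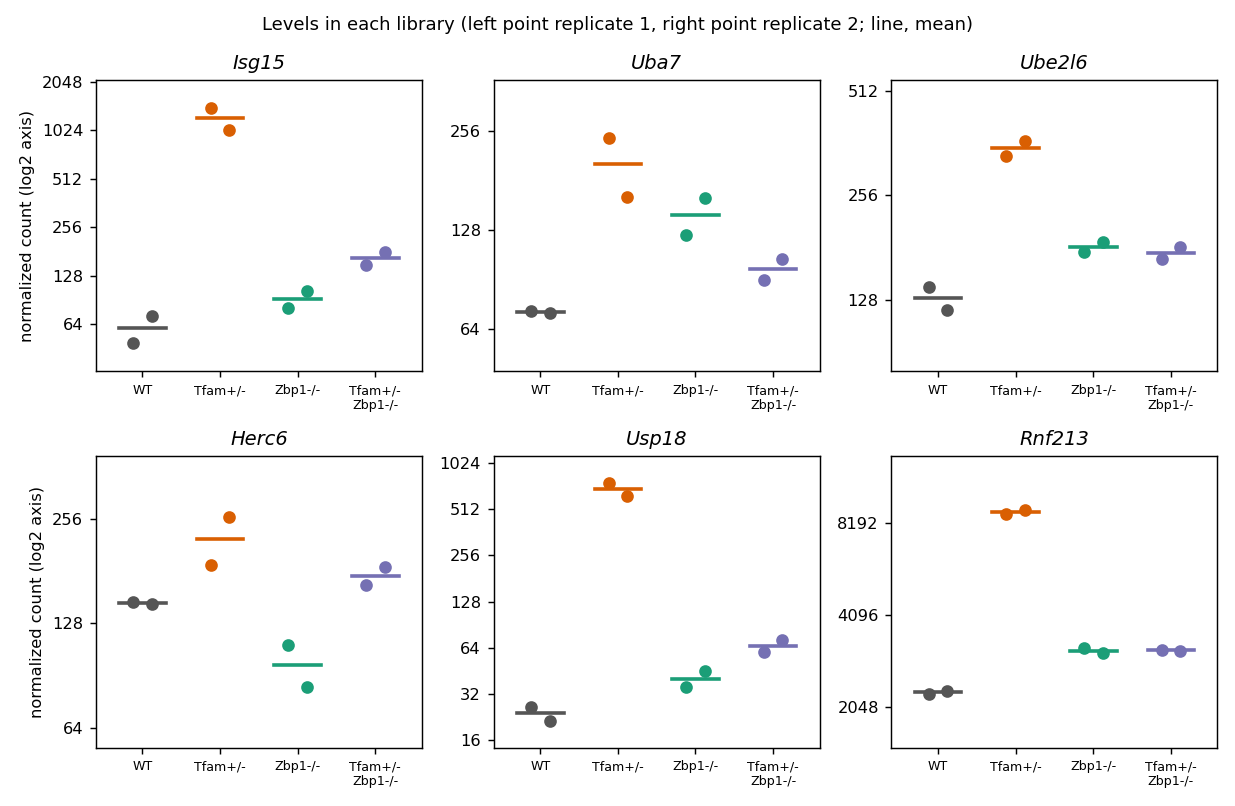
Normalized count of each gene (y axes, log2 scale, different range in each panel) in the 2 libraries of each genotype (points) with their mean (lines). Tfam+/- is the highest genotype in all 6 panels, while Herc6 alone is lowest in Zbp1-/-.

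To set the genes side by side, counts were divided by the summed length of the gene's exons in protein-coding transcripts, which ranged from 0.756 kb for Isg15 to 16.9 kb for Rnf213. In WT the mean level per kb of exon was highest for Rnf213 (136), then Isg15 (79.9) and Ube2l6 (78.7), Herc6 (30.7), Uba7 (22.5) and Usp18 (11.4). The WT ranges of Isg15 (64.8 to 94.9) and Ube2l6 (72.6 to 84.8) overlapped, so these neighbours in the order did not differ beyond their spread. In Tfam+/- the order became Isg15 (1618 per kb), Rnf213 (526), Usp18 (332), Ube2l6 (211), Uba7 (63.4) and Herc6 (46.8), and the ranges of Uba7 (50.5 to 76.3) and Herc6 (39.4 to 54.2) overlapped. Usp18 thus moved from the lowest level per kb of the set to the third. These lengths come from GENCODE and not from the isoforms present in these cells.

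The effect of losing 1 Tfam allele was addressed by comparing Tfam+/- with WT. In limma, a linear model on log2(normalized count + 1) fitted to 13267 genes, 4 of the 6 genes rose: Isg15, Ube2l6, Usp18 and Rnf213. Among all genes tested, 0.565% were called higher at an adjusted p (Benjamini-Hochberg) under 0.05. Usp18 changed by a log2 value of 4.81 ± 0.21 (SE; adjusted p 8.0e-04) and Isg15 by 4.33 ± 0.25 (adjusted p 0.0016, 20.1-fold). Rnf213 rose by 1.95 ± 0.09 (adjusted p 8.0e-04, 3.87-fold), the smallest standard error of the set. Ube2l6 rose by 1.42 ± 0.14 (adjusted p 0.010, 2.68-fold).

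Uba7 and Herc6 did not pass the threshold in this comparison. The Uba7 difference, 1.45 ± 0.23 (adjusted p 0.059), was as large as that of Ube2l6, with a wider spread between the Tfam+/- libraries. For Herc6 the difference was 0.59 ± 0.21 (adjusted p 0.47). For all 6 genes both Tfam+/- libraries lay above both WT libraries, which held for 23.3% of all genes tested. The median of the 6 log2 changes was 1.70, and that of all genes was -0.01. The calls of Isg15, Usp18 and Rnf213 held without any 1 of the 8 libraries. That of Ube2l6 was lost in 6 of 18 alternative settings, and its log2 changes over the 18 ran from 1.31 to 1.53. Among the 6 were the fits without WT replicate 1 or 2, or Tfam+/-Zbp1-/- replicate 1 or 2. Those fits leave 1 library in a genotype, and calls became fewer over the whole table in them. In the other 6 libraries all 6 genes were called, with Uba7 at 1.16 and Herc6 at 0.82, but that fit called 15.4% of all genes in either direction.

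The comparison of Zbp1-/- with WT asked what the loss of Zbp1 does where both Tfam alleles are present. In limma 0 of the 6 genes were called, while 1.06% of all genes were, and 6 of 6 had an unadjusted p under 0.05, as did 19.7% of all genes. Isg15, Usp18, Uba7, Ube2l6 and Rnf213 had both Zbp1-/- libraries above both WT libraries (42.1% of all genes did), and Herc6 had them below (16.8%). The log2 differences were 0.62 ± 0.25 for Isg15, 0.73 ± 0.21 for Usp18, 0.96 ± 0.23 for Uba7, 0.49 ± 0.14 for Ube2l6, 0.45 ± 0.09 for Rnf213 and -0.60 ± 0.21 for Herc6 (adjusted p 0.074 to 0.24). The median of all genes in this comparison was 0.11 as deposited, and TMM rescaling, which uses a trimmed mean of log ratios, brought it to -0.00. In the other 6 libraries 4 genes were called, Uba7 at 0.78, Ube2l6 at 0.44, Rnf213 at 0.48 and Herc6 at -0.40, where 34.3% of all genes were called.

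**Figure D2:**
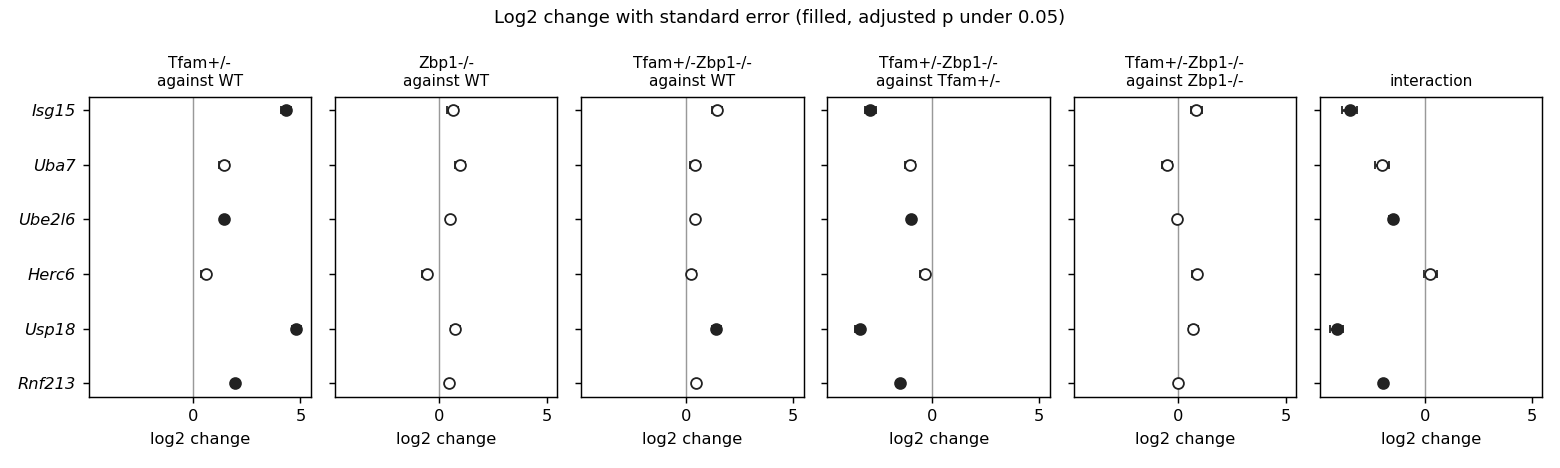
Log2 change on the log2(normalized count + 1) scale (x axes) of each gene (rows) in each comparison (panels), with its standard error from limma; filled points had an adjusted p under 0.05. Isg15, Ube2l6, Usp18 and Rnf213 are filled in Tfam+/- against WT, in Tfam+/-Zbp1-/- against Tfam+/- and in the interaction, and Herc6 is open in every panel.

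Loss of Zbp1 on the heterozygous Tfam background was read from Tfam+/-Zbp1-/- against Tfam+/-. Isg15, Ube2l6, Usp18 and Rnf213 fell, 4 of the 6 genes, where 2.32% of all genes were called lower. Usp18 fell by 3.38 on the log2 scale (SE 0.21, adjusted p 0.0016) and Isg15 fell by 2.87 (SE 0.25, adjusted p 0.0033). Rnf213 fell by 1.4997 (SE 0.09, adjusted p 0.0013) and Ube2l6 fell by 0.99 (SE 0.14, adjusted p 0.011). The differences of Uba7, -1.03 ± 0.23 (adjusted p 0.056), and Herc6, -0.34 ± 0.21 (adjusted p 0.38), did not pass. For all 6 genes both Tfam+/-Zbp1-/- libraries were below both Tfam+/- libraries, as for 13.5% of all genes. The calls of Usp18 and Rnf213 held without any 1 library, and those of Isg15 and Ube2l6 were lost without Tfam+/-Zbp1-/- replicate 1 or replicate 2, at -3.00 to -2.74 and -1.05 to -0.93. Without either of those libraries, most calls of the whole table were lost too. In the other 6 libraries all 6 genes were called, with Uba7 at -0.73 and Herc6 at -0.56, and so were 43.6% of all genes.

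Leukocyte markers moved in the same comparison. The 15 that were tested had a median log2 change of -1.32 in Tfam+/-Zbp1-/- against Tfam+/-, and 11 were called lower and 0 higher. Among all genes, 2.32% were called lower. Summed over the 17 markers, the level was 6157 and 6189 in WT, 7214 to 8401 in Tfam+/-, 3936 to 4021 in Zbp1-/-, while Tfam+/-Zbp1-/- held 3125 to 3146. In Tfam+/- against WT the median of the leukocyte markers was 0.42, and 0 of the 15 were called by limma, with 7 at an unadjusted p under 0.05 (8.74% of all genes). Among 5 epithelial markers, Epcam, Cdh1 and Krt5 were at most 6.34, while both that were tested, Krt8 and Krt18, were called lower in Tfam+/-Zbp1-/- against Tfam+/- (sums 120 to 138 against 273 to 402). Among 5 muscle markers, Myod1, Myog and Ckm were at most 2.35 and 1 of 2 tested was called lower (sums 600.0 to 612 against 1234 to 1756). Of 9 fibroblast markers, 2 were called higher. In either direction 5.64% of all genes were called, and 58.8% of those calls were higher. Among 5 endothelial markers 2 were tested, and 1 fell (-0.54) while 1 rose (1.31). Both had an unadjusted p under 0.05 (20.8% of all genes), and 0 were called. Fewer cells of a type and less RNA per cell cannot be told apart in such bulk samples, and the part of these markers in the fall of Isg15, Usp18, Ube2l6 and Rnf213 was not tested.

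The remaining difference from WT was measured in Tfam+/-Zbp1-/- against WT. Usp18 was the 1 gene of the 6 that was called, at 1.42 ± 0.21 (limma, adjusted p 0.035, 2.68-fold), and 0.897% of all genes were called higher. This call was lost without WT replicate 1 or 2, or Tfam+/-Zbp1-/- replicate 1 or 2, at 1.28 to 1.57. Those fits leave 1 library in a genotype, and the calls of all genes were lost in them. Isg15 had a difference of the same size, 1.46 ± 0.25 (adjusted p 0.051, 2.74-fold), and was called without either Tfam+/- library. Rnf213 (0.45 ± 0.09), Ube2l6 (0.43 ± 0.14), Uba7 (0.43 ± 0.23) and Herc6 (0.25 ± 0.21) were not called (adjusted p 0.065 to 0.69). All 6 genes had both Tfam+/-Zbp1-/- libraries above both WT libraries, but so did 58.8% of all genes, whose median was 0.12. The other 6 libraries, in which both genotypes compared kept 2 libraries, called 5 of the 6 genes, all but Herc6, and 44.8% of all genes.

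The effect of losing 1 Tfam allele in the absence of Zbp1 was read from Tfam+/-Zbp1-/- against Zbp1-/-. In limma 0 of the 6 genes were called, with 0.415% of all genes called, and 3 had an unadjusted p under 0.05 where 12.3% of all genes did. Those 3 were Isg15 (0.84 ± 0.25), Usp18 (0.70 ± 0.21) and Herc6 (0.85 ± 0.21), with adjusted p of 0.18 to 0.25. For each of them both Tfam+/-Zbp1-/- libraries were above both Zbp1-/- libraries, as for 26.2% of all genes. The values of Rnf213 (0.00 ± 0.09) and Ube2l6 (-0.05 ± 0.14) overlapped between these genotypes, and Uba7 was lower in Tfam+/-Zbp1-/- without overlap (-0.53 ± 0.23, 23.3% of all genes). In the other 6 libraries Isg15 (1.01), Usp18 (0.87) and Herc6 (0.65) were called, together with 23.4% of all genes.

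The interaction asked if Tfam heterozygosity acted differently with and without Zbp1. The Tfam+/- against WT difference was subtracted from that of Tfam+/-Zbp1-/- against Zbp1-/-. It was called below 0 for Isg15, Ube2l6, Usp18 and Rnf213, 4 of the 6 genes, with 0.445% of all genes called below 0. The estimates were -4.11 ± 0.30 for Usp18 (adjusted p 0.015), -3.49 ± 0.35 for Isg15 (adjusted p 0.019), -1.95 ± 0.12 for Rnf213 (adjusted p 0.013) and -1.48 ± 0.20 for Ube2l6 (adjusted p 0.037). Uba7, at -1.98 ± 0.33, was as far from 0 as Rnf213 but did not pass (adjusted p 0.064). Herc6 was at 0.26 ± 0.29 (adjusted p 0.56), and its Tfam differences were 0.59 with Zbp1 and 0.85 without it.

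The interaction calls depended on single libraries, here and over the whole table. Without either WT library, either Tfam+/-Zbp1-/- library or Zbp1-/- replicate 2, the interaction calls of all genes were lost, these 4 among them. Each such fit leaves 1 library in a genotype. The call of Ube2l6 was lost whichever of the 8 libraries was left out. The estimates themselves stayed within -4.28 to -3.94 for Usp18, -3.76 to -3.22 for Isg15, -1.98 to -1.92 for Rnf213 and -1.59 to -1.36 for Ube2l6. In the other 6 libraries 5 genes were called, with Uba7 at -1.51, where 19.1% of all genes were called, and Herc6 turned to -0.16 without a call. Leukocyte, epithelial and muscle markers also lay mostly below 0 in the interaction, while endothelial markers lay on both sides. The 15 leukocyte markers had a median of -0.68, with 1 above 0, and 0 were called by limma, while 9 had an unadjusted p under 0.05 (16% of all genes). Both epithelial markers tested, Krt8 and Krt18, had an unadjusted p under 0.05 (median -1.52), and 0 were called. The 2 muscle markers tested were at -0.82 and -0.73 and the 2 endothelial ones at -0.13 and 0.92, with 0 called. The part of these markers in the interaction of the 4 genes was not tested.

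Ratios of genes within a library do not depend on the scaling between libraries and show how the balance of the system moved. The ratio of Isg15 to Usp18 counts was 1.86 and 3.37 (WT), 1.85 and 1.66 (Tfam+/-), 2.29 and 2.30 (Zbp1-/-), and 2.53 and 2.51 (Tfam+/-Zbp1-/-). The ratio of modifier to protease thus stayed between 1.66 and 3.37, lowest in Tfam+/-. Isg15 to Uba7 was 0.676 and 1.01 (WT), 5.78 and 6.43 (Tfam+/-), 0.654 and 0.647 (Zbp1-/-), and 1.67 and 1.72 (Tfam+/-Zbp1-/-). Isg15 to Ube2l6 was 0.350 and 0.598 in WT against 4.25 and 2.83 in Tfam+/-, and Isg15 to Herc6 was 0.333 and 0.492 against 7.498 and 4.01. The transcript of the modifier therefore outgrew those of its E1, E2 and E3 in both Tfam+/- libraries. Such ratios depend on gene length, so only their change between genotypes can be read. With 2 libraries in each genotype the smallest exact permutation p is 0.333, so the ratios were not tested.

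**Figure D3:**
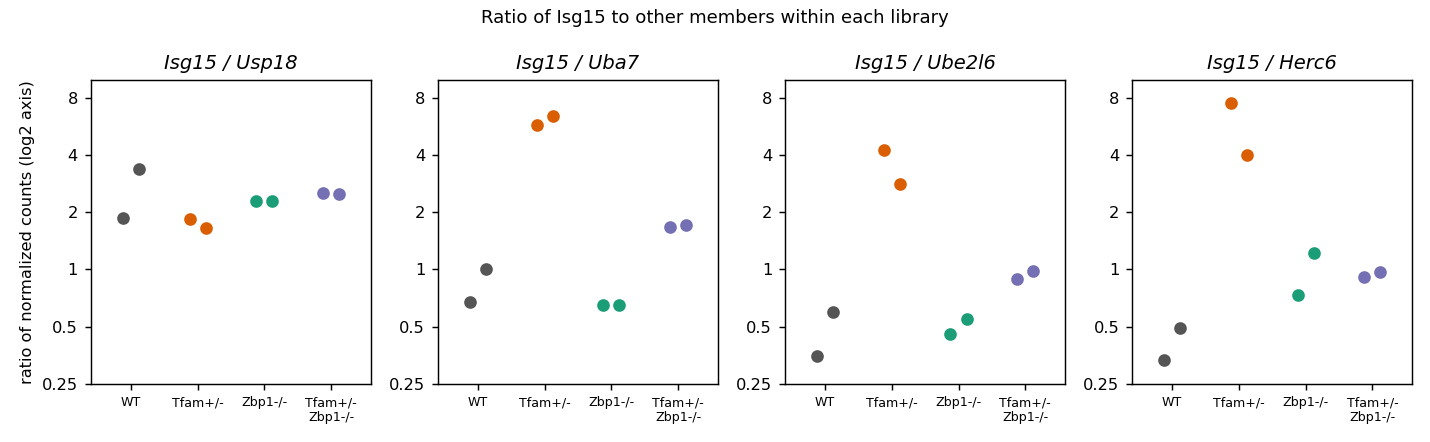
Ratio of Isg15 to Usp18, Uba7, Ube2l6 and Herc6 normalized counts within each library (y axes, log2 scale), with the 2 libraries of each genotype as points. The ratio to Usp18 lies between 1.66 and 3.37 throughout, and the ratios to the conjugating enzymes are highest in Tfam+/-.

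Genes most like each member were named by Pearson's r of log2 values over the 8 libraries, as a description. The Tfam+/- libraries carry most of the variance of Isg15, Usp18, Ube2l6 and Rnf213, but not of Uba7 and Herc6. The closest to Isg15 were Dhx58 (r = 0.993), Irf7 (0.992) and Ifit3 (0.992), and to Usp18 they were Xaf1 (0.999), Bst2 (0.995) and Irf9 (0.992). Rnf213 was closest to Parp14 (0.993), Igtp (0.991) and Ifit3 (0.991), and Ube2l6 to Igtp (0.984), Tor3a (0.983) and Zzef1 (0.981). Uba7 was closest to Agrn (0.991), Tap1 (0.985) and H2-Q4 (0.983). Agrn, which encodes agrin, is the nearest protein-coding neighbour of Isg15, 1936 bases away. Its normalized counts were 1219 and 1228 (WT), 3639 and 2799 (Tfam+/-), 2068 and 2635 (Zbp1-/-), and 1627 and 1599.6 (Tfam+/-Zbp1-/-). Herc6 was closest to Map3k20 (0.990), Cinp (0.972) and Mitd1 (0.971). Among the 6 genes themselves, r was 0.991 between Isg15 and Usp18 and 0.980 between Ube2l6 and Rnf213, but 0.115 between Uba7 and Herc6. Both libraries that were shifted together held the higher Uba7 and the lower Herc6 value of their genotype.

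Each enzyme was then set beside the rest of its family. Of 43 other USP proteases tested, 0 were called in Tfam+/- against WT, with 1 at an unadjusted p under 0.05 (8.74% of all genes), and their log2 changes ran from -0.55 to 0.29 around a median of -0.13. Usp18 was thus outside the range of its family. Of 31 other E2 enzymes, 0 were called and 0 had an unadjusted p under 0.05, within -0.75 to 0.33 (median -0.20), against 1.42 for Ube2l6. Among them Ube2l3, which shares its subfamily, was at 3204 and 3104 in WT and 2768 and 3348 in Tfam+/-.

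The 20 other modifiers and E1 enzymes tested had 0 calls and 0 unadjusted p under 0.05, within -0.60 to 0.44 (median 0.12). The 4 other HERC genes had 0 calls and 0 unadjusted p under 0.05, within -0.29 to -0.06 (median -0.12), and all 4 lay below Herc6 at 0.59. In Tfam+/-Zbp1-/- against Tfam+/- these 4 lists again had 0 calls by limma, with 3 USP genes, 2 HERC genes and 0 of the others at an unadjusted p under 0.05 (20.8% of all genes). Medians there were 0.25 for the USP genes, 0.31 for the E2 enzymes, 0.01 for the modifiers and E1 enzymes and 0.33 for the HERC genes, beside 0.14 for all genes.

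**Figure D4:**
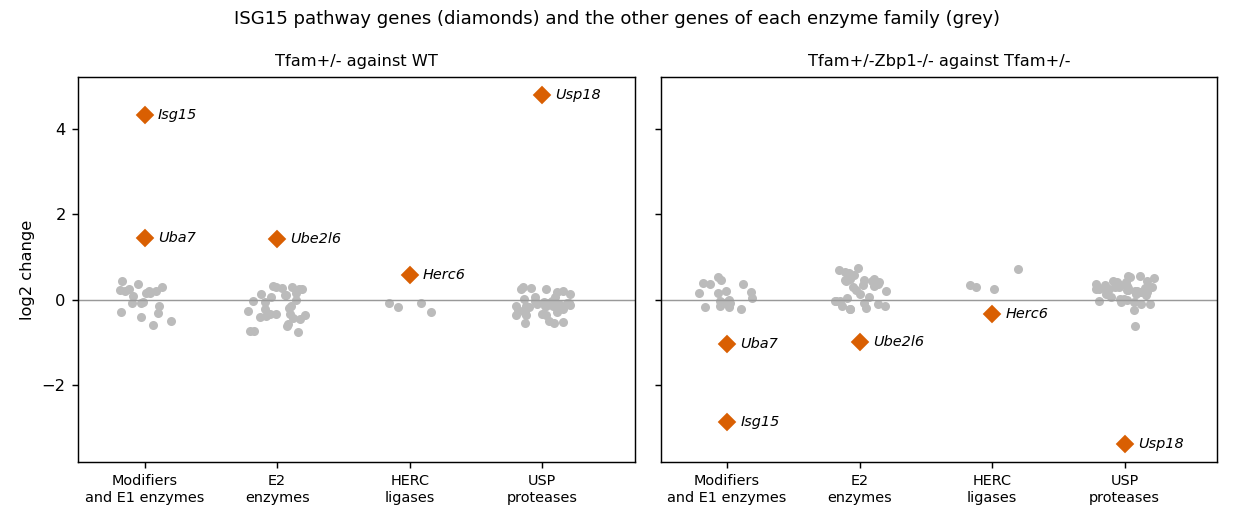
Log2 change (y axis) of Isg15, Uba7, Ube2l6, Herc6 and Usp18 (diamonds) and of the other genes of the same enzyme families (grey points, 20 modifiers and E1 enzymes, 31 E2 enzymes, 4 HERC ligases and 43 USP proteases), in Tfam+/- against WT and in Tfam+/-Zbp1-/- against Tfam+/-. The grey points lie between -0.75 and 0.75 in both panels.

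Other genes reported to act with ISG15 were taken as 10 partners: the further ligases Trim25 and Arih1, the USP18-degrading ligase gene Skp2, 6 USP genes reported to react with ISG15, and Itgal, a subunit of the leukocyte integrin that binds secreted ISG15. In Tfam+/- against WT, 1 of 10 was called higher (0.565% of all genes) and 0 lower, with a list median of -0.13. Trim25 went from 1067 and 1194 in WT to 2087 and 2136 in Tfam+/-, a log2 change of 0.90 ± 0.10 (limma, adjusted p 0.017). Zbp1-/- libraries had 1577 and 1612, Tfam+/-Zbp1-/- libraries 1221 and 1153, and its interaction of -1.33 ± 0.15 was called (adjusted p 0.021). Itgal, named after its values were seen, was at 38.6 and 45.7 in WT and 13.0 and 13.4 in Zbp1-/-, and its log2 change of -1.60 ± 0.22 was called (adjusted p 0.032). It stood beside the lower leukocyte markers of Zbp1-/- given above, and their part in it was not tested.

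Of 7 genes of interferon receptor signalling, 3 rose in Tfam+/- against WT and 0 fell, with a median of 0.33. Among all genes, 0.565% were called higher. Among them, Stat2 was at 648 and 613 in WT and 2198 and 1877 in Tfam+/- (log2 change 1.69 ± 0.13, limma adjusted p 0.0034), and Irf9 changed by 1.48 ± 0.10 (adjusted p 0.0031). In Tfam+/-Zbp1-/- against Tfam+/-, 3 of the 7 fell and 1 rose, where 5.64% of all genes were called in either direction. The gene that rose was Ifnar1, which encodes a receptor subunit, named after its values were seen (0.65 ± 0.12, adjusted p 0.030). Stat2 fell by 1.23 and Irf9 fell by 0.93 on the log2 scale (adjusted p 0.0045 and 0.0053). The interaction was called for Stat2 (-1.70) and Irf9 (-1.19), where 0.445% of all genes were called below 0.

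Of 20 proteins reported as targets of ISG15, the genes of 3 rose in Tfam+/- against WT (0.565% of all genes) and 0 fell, with a median of 0.20. They included Ifit1, an RNA-binding antiviral gene (3.21 ± 0.23, limma adjusted p 0.0032), and Ddx58, which encodes the RNA sensor RIG-I (1.33 ± 0.15, adjusted p 0.016). Mx1, an antiviral GTPase gene named after its values were seen, differed by 3.44 ± 0.55 and was not called (adjusted p 0.059). Its normalized counts were 1.96 and 1.90 in WT and 25.7 and 37.1 in Tfam+/-. The size of its change thus rests on WT values near the pseudocount of 1. Some genes stand in more than 1 of these lists. Protein modification itself was not measured.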

How the data were processed

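RNA sequencing of total RNA was analysed in 8 libraries of 4 genotypes, assigned by the labels. The authors aligned reads to mm10 with RefSeq genes in BaseSpace, per the series' design text, and STAR 2.6.1a and Salmon are named in the submitters' processing notes. What was deposited is 1 normalized count for each gene and library, treated here as a signal made by the authors. No source used here gives how reads were counted, whether strand was used or how libraries were scaled.

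Of 24972 table names, 24407 matched a RefSeq symbol, and 26 had been turned into dates by a spreadsheet. In each library the most repeated value was taken as 1 read, and 22.1% to 34.8% of low values lay within 0.01 of a whole multiple, so whole reads could not be recovered for a count test. Genes with a mean of at least 10 were tested (13267, all 6 members among them) on log2(normalized count + 1). A fold change on that scale understates low genes. limma 3.58.1 in R 4.3.3 fitted the 4 genotypes together with a mean-variance trend (4 residual and 2.77 prior degrees of freedom). Tests were two-sided, and calls had a Benjamini-Hochberg adjusted p under 0.05 over all genes. The fit was tested on simulated data.

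The members, gene lists and tests were chosen with earlier results of these data known. Named genes were the members, up to 4 genes of a list called in Tfam+/- against WT or the interaction, otherwise the gene of highest level, and the 3 genes most like each member. Ube2l3, Mx1, Ifnar1 and Itgal were named outside that rule, and some genes it names are not reported here. Protein sequences were not used here. Exon lengths and overlaps came from GENCODE vM21, coordinates and promoters from RefSeq GRCm38.p6. Other settings tried were a pseudocount of 5 or 0.1, a minimum mean of 50 or none, TMM rescaling, a prior with no trend, fits to the compared genotypes alone, a block for replicate number, leaving out each library and, chosen after seeing the data, a term shared by 2 shifted libraries and the other 6 libraries alone.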

Additional observations from a re-analysis of the deposited data

Results flagged for a closer look

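The effect of losing 1 Tfam allele differed between cells with and without Zbp1 by the interaction test in limma for 4 genes, with 2 libraries per genotype. Among all genes, 0.445% were called below 0. With a block for replicate number 0 of all genes were called. The Ube2l6 call was lost whichever library was left out. The calls of Isg15, Usp18 and Rnf213 were lost without either WT library, either Tfam+/-Zbp1-/- library or Zbp1-/- replicate 2. With all libraries and no block, the difference was -3.49 for Isg15, whose Tfam effect was 4.33 with Zbp1 and 0.84 without it. It was -4.11 for Usp18 (4.81 and 0.70), -1.48 for Ube2l6 (1.42 and -0.05) and -1.95 for Rnf213 (1.95 and 0.00). In the same test the 15 leukocyte markers had a median of -0.68 and the 2 epithelial markers tested a median of -1.52. The 2 muscle markers tested were at -0.82 and -0.73 and the 2 endothelial ones at -0.13 and 0.92. Of these markers 0 were called, and their part was not tested. No group had enough libraries for a test of single libraries that stand apart.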

How the results depend on the processing

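With 2 libraries per genotype, calls depended more on the setting than estimates did. The number of the 6 genes called in Tfam+/-Zbp1-/- against WT, 1 with all libraries, was 0 without a filter on low values, 0 with the replicate block, 5 with the term shared by 2 libraries, 5 in the other 6 libraries and 5 when only these genotypes were fitted. The last 3 settings called 42.5%, 44.8% and 44.7% of all genes, beside 1.38% with all libraries. In Zbp1-/- against WT it went from 0 to 5 with the shared term and 4 in the other 6 libraries (35.6% and 34.3% of all genes), and in Tfam+/-Zbp1-/- against Zbp1-/- from 0 to 3 in both (23.8% and 23.4%). The interaction went from 4 to 0 with the replicate block, which called 0 of all genes.

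Replicate numbers did not pair the libraries: deviations of same-numbered libraries correlated at -0.70 to 0.06 over the 6 pairs of genotypes. Leaving out 1 library gave 0 to 2 calls in Tfam+/-Zbp1-/- against WT, 2 to 5 in Tfam+/-Zbp1-/- against Tfam+/-, and 0 to 4 in the interaction. Estimates changed sign where they were near 0. In Tfam+/-Zbp1-/- against Zbp1-/-, Rnf213 was -0.0191 with the shared term, -0.0236 in the other 6 libraries and from -0.0236 (without Zbp1-/- replicate 2) to 0.0319 with 1 library left out, where Ube2l6 ran from -0.114 to 0.00445 (without Tfam+/-Zbp1-/- replicate 1). For Herc6 the interaction became -0.16 under both of these added settings, which share that estimate by construction. Of 642 alternative values of single genes, 549 kept direction and side of the threshold, 44 lost a call, 43 gained one and 6 changed sign. Over all genes, counts of calls ranged from 12 to 2069 (97 in the main setting) in Tfam+/- against WT, 0 to 4717 (141) in Zbp1-/- against WT, 0 to 5946 (183) in Tfam+/-Zbp1-/- against WT, 12 to 6049 (748) against Tfam+/-, 0 to 3155 (55) against Zbp1-/- and 0 to 2534 (88) in the interaction. The cause was not tested. Rescaling moved the share of calls that were higher from 84.4% to 73.3% in Zbp1-/- against WT, from 65.0% to 49.5% in Tfam+/-Zbp1-/- against WT and from 58.8% to 43.0% against Tfam+/-. The depth behind a value is unknown, since reads were not recovered.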
